A study of Gallus gallus with 6 samples.

Results

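The genes of purine synthesis and uric acid formation were examined in the liver of hens of the Lushi chicken, given in the study's methods as Lushi green shell chicken. The list held 10 genes. PPAT, GART, PFAS, PAICS, ADSL and ATIC make inosine monophosphate (IMP), the first complete purine nucleotide. ADSS and IMPDH2 open the branches from IMP to AMP and to GMP. PNP and XDH break purines down to uric acid. The deposited gene table was searched for these symbols among its 14078 genes. Of the 10 genes, 6 were found under their own symbol. PAICS was found as AIRC and ATIC as PURH, older symbols that RefSeq pairs with them. PFAS and PNP were not matched and were not analysed here. Levels are given as FPKM, fragments scaled by transcript length and by a factor for each library. Every matched gene averaged 1 FPKM or more across the 6 hens, and so all 8 entered the test of 9732 genes.

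Liver RNA of 3 laying hens aged 30 weeks (L30) was compared with that of 3 juvenile hens aged 20 weeks (L20). All 6 birds were female and of the same breed, with 1 library per hen. Age and laying state changed together, so their parts cannot be told apart. The comparison asks how liver expression differs between these physiological stages. Fold changes are L30 over L20 on log2(FPKM + 1), with standard error (SE) and 95% interval from limma. A gene was called differentially expressed (DE) when its unadjusted p did not exceed 0.05, so that its 95% interval left out 0. It was called significantly differentially expressed (SDE) when the p adjusted by Benjamini-Hochberg over all tested genes did not exceed 0.05 and the group means differed at least 2-fold.

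Birds dispose of most surplus amino acid nitrogen as uric acid, and the liver is the main site where it is made. The purine ring is built on phosphoribosyl pyrophosphate (PRPP), and glutamine, glycine, aspartate and formyl groups carried by folate give its atoms. Xanthine dehydrogenase then oxidises hypoxanthine and xanthine to uric acid, which birds do not degrade further because they lack active uricase. In this tissue the pathway therefore serves both nucleotide supply and nitrogen excretion.

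Between 13764761 and 21570437 reads on genes were recovered per hen, and the median FPKM of a gene lay between 2.97 and 3.32. The yolk precursor genes VTG2, APOVLDLII and APOB summed to 38397 to 54269 FPKM in L30 hens, against 141 to 399 FPKM in L20 hens, so every library matched its label. The 8 hepatocyte markers summed to 30027 to 43860 FPKM in L30 hens and 46173 to 59338 FPKM in L20 hens, but did not move together. Albumin (ALB) and AHSG were DE and higher in L30 hens, with ALB at 14717 ± 2008 FPKM in L30 hens and 7380 ± 3490 FPKM in L20 hens, while the fibrinogen genes FGA, FGB and FGG were DE and lower. Marker lists of other liver cells differed in how they moved. The 6 macrophage markers, such as MARCO and C1QA, summed to 624 to 766 FPKM in L30 hens and 952 to 1077 FPKM in L20 hens. Of these 6, 4 were DE and lower, beside 11.7% of all genes. The lymphocyte sums were 20.5 to 21.7 FPKM in L30 hens and 30.6 to 35.3 FPKM in L20 hens, and the endothelial and stellate sums were 36.9 to 60.7 FPKM in L30 hens and 79.7 to 96.7 FPKM in L20 hens. The bile duct sums were 39.3 to 71.1 FPKM in L30 hens and 19.2 to 41.4 FPKM in L20 hens, and the erythrocyte sums 52.6 to 114 FPKM in L30 hens and 34.6 to 147 FPKM in L20 hens. Both overlapped between the groups. No marker that was found lay below 0.1 FPKM in every hen. Some stayed low, such as CFTR of the bile duct (at most 0.324 FPKM) and a second CD8A entry (at most 0.134 FPKM). Of 7 erythrocyte markers only 2 were found, HBAA and SLC4A1, and HBAA made up most of that sum. EPCAM made up most of the bile duct sum in every hen, and neither EPCAM nor KRT19 was DE.

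Of the 8 measured genes, 3 were DE and higher in L30 hens, namely PPAT, GART and PAICS. ADSS and IMPDH2 were DE and lower, and ADSL, ATIC and XDH were not DE. Among all genes tested, 11.0% were DE and higher and 11.7% were DE and lower. PPAT and PAICS were also SDE, a call that 1.82% of all genes reached as higher and 0.935% as lower. Every L30 hen lay above every L20 hen for the 3 higher genes, as for 14.0% of all genes, and every L30 hen lay below every L20 hen for the 2 lower ones, as for 16.0% of all genes. The median log2 fold change of the 8 genes was 0.32, beside −0.04 over all genes tested. The exact two-sided permutation test on mean FPKM gave p = 0.1 for each of the 5 DE genes, the smallest p that 3 hens against 3 allow. The same exact test gave p = 0.6 for ADSL, p = 0.7 for ATIC and p = 0.4 for XDH.

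**Figure D1:**
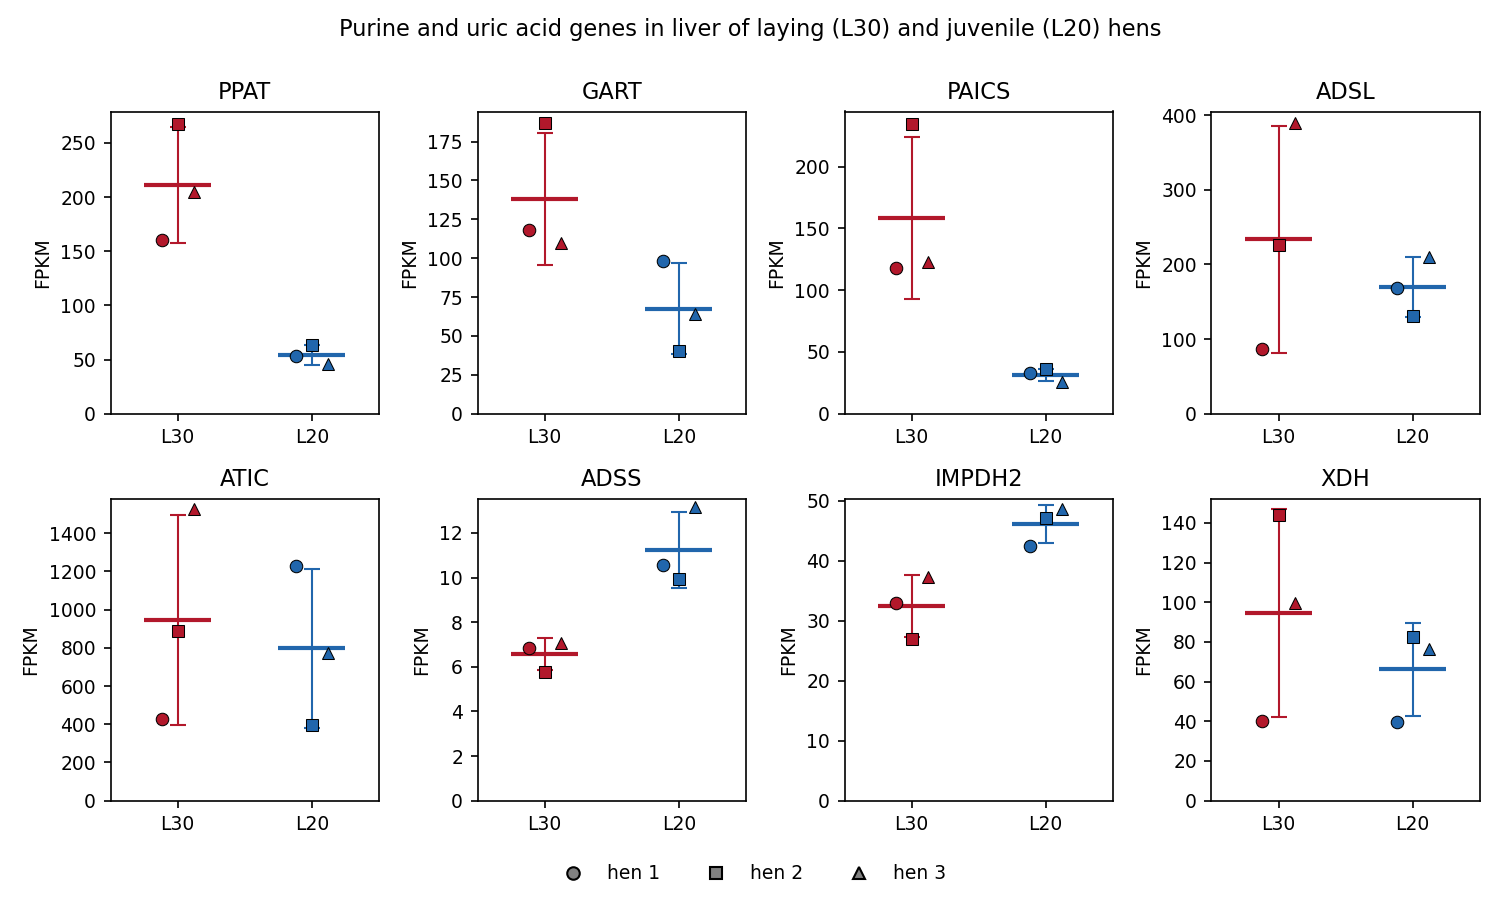
FPKM of the 8 measured genes in each hen, with L30 hens left (red) and L20 hens right (blue) on axes that start at 0. Symbols mark single hens, horizontal lines the group mean and bars 1 SD (n = 3 each). PPAT, GART and PAICS have all L30 hens above all L20 hens, ADSS and IMPDH2 have all L30 hens below, and the groups overlap for ADSL, ATIC and XDH.

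PPAT encodes amidophosphoribosyltransferase, which commits PRPP to purine synthesis. It had 161, 268 and 204 FPKM in L30 hens 1 to 3, against 53.1, 63.6 and 45.8 FPKM in L20 hens 1 to 3. The lowest laying hen stood well above the highest juvenile hen. The mean was 211 ± 53.8 FPKM in L30 hens and 54.2 ± 8.95 FPKM in L20 hens (SD, n = 3 each), a ratio of 3.90. The log2 fold change was 1.92 (SE 0.23, 95% interval 1.36 to 2.49, limma adjusted p = 0.0166). Its reads per hen numbered 3491 to 13573, so counting error was small beside the spread between hens. PPAT stayed DE whichever hen was left out. Its adjusted p missed the threshold without L20 hen 3 (0.0777) and without L30 hen 2 (0.0536), and ranged from 3.48e-13 to 0.0777 over 15 alternatives.

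PAICS encodes a bifunctional enzyme that carboxylates aminoimidazole ribonucleotide and then adds aspartate. It had 118, 234 and 123 FPKM in L30 hens, against 32.6, 35.8 and 25.9 FPKM in L20 hens. L30 hen 2 was the highest bird for both PAICS and PPAT, and L20 hen 3 the lowest for both. The mean of 159 ± 65.7 FPKM in L30 hens stood against 31.5 ± 5.06 FPKM in L20 hens, a ratio of 5.04 and the largest among the 8 genes. PAICS had a log2 fold change of 2.24 (SE 0.30, 95% interval 1.52 to 2.95, limma adjusted p = 0.0212). The adjusted p was 0.0528 without L20 hen 1, 0.0704 without L20 hen 2 and 0.0983 without L20 hen 3, within a range of 6.56e-11 to 0.0983 over the alternatives. PAICS was DE under all of them.

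PPAT (ENSGALG00000013728) and PAICS (ENSGALG00000013726) carry the same position in the deposited table, chromosome 4 from 64341541 to 64393109 on galGal4, a span of 51569 bp. The pair lies head to head in vertebrate genomes, with a shared promoter region between them that is transcribed in both directions. How reads in this span were shared between the pair is not given in the sources used here, so their values are not independent measurements of a known kind. The FPKM ratio of PAICS to PPAT was 0.735, 0.875 and 0.602 in L30 hens, against 0.614, 0.564 and 0.566 in L20 hens. These ratios overlapped between the groups through L30 hen 3.

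GART (ENSGALG00000015983, chromosome 1 from 104733803 to 104766998) encodes a trifunctional enzyme that adds glycine and a formyl group. It had 118, 187 and 110 FPKM in L30 hens, against 98.5, 40.1 and 64.1 FPKM in L20 hens. The groups were separate, but L30 hen 3 and L20 hen 1 lay close together. The means were 138 ± 42.4 FPKM in L30 hens and 67.5 ± 29.4 FPKM in L20 hens, a ratio of 2.05. On the log2 scale this was 1.07 (SE 0.37, 95% interval 0.18 to 1.96, limma adjusted p = 0.161), so GART was DE and not SDE. The DE call was lost without L20 hen 2 (log2 fold change 0.75), without L20 hen 3 (1.08) and without L30 hen 2 (0.84), and its adjusted p ranged from 0.0416 to 0.364 over the alternatives.

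ADSL (ENSGALG00000012034, chromosome 1 from 49948589 to 49964213) encodes adenylosuccinate lyase, which acts both on the way to IMP and in the AMP branch. It had 86.1, 226 and 390 FPKM in L30 hens, against 168, 131 and 210 FPKM in L20 hens. The laying hens held both the lowest and the highest bird, a 4.52-fold spread. The log2 fold change of 0.24 (SE 0.54, 95% interval −1.07 to 1.54, limma adjusted p = 0.821) had an interval on both sides of 0, and without L30 hen 3 it was −0.25.

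ATIC (ENSGALG00000003570, chromosome 7 from 4312645 to 4330369) encodes the bifunctional enzyme that adds the last formyl group and closes the ring. It had 430, 888 and 1525 FPKM in L30 hens, against 1227, 395 and 771 FPKM in L20 hens. Both groups spanned nearly the same range, with means of 948 ± 550 FPKM in L30 hens and 798 ± 417 FPKM in L20 hens. The difference was 0.21 on the log2 scale (SE 0.58, 95% interval −1.19 to 1.62, limma adjusted p = 0.851). It changed sign, to −0.22, without L20 hen 2 and likewise without L30 hen 3. Reads per hen numbered 20983 to 54485, the most of the 8 genes, so depth did not limit ATIC. The intervals of ADSL and ATIC included changes of the size seen for GART, so a like change in them cannot be told from none.

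The 2 members that open the IMP branches, ADSS and IMPDH2, went the other way. ADSL, which also acts in the AMP branch, was not DE. Among 10 tested genes of purine interconversion beyond IMP, given below, 0 were DE and lower, beside 11.7% of all genes. ADSS (ENSGALG00000010702, chromosome 3 from 34116277 to 34136305) encodes adenylosuccinate synthase, the first enzyme of the AMP branch. It had 6.87, 5.76 and 7.07 FPKM in L30 hens, against 10.6, 9.95 and 13.2 FPKM in L20 hens. Every laying hen was below every juvenile hen, with means of 6.56 ± 0.708 FPKM in L30 hens and 11.2 ± 1.71 FPKM in L20 hens. On the log2 scale the difference was −0.69 (SE 0.14, 95% interval −1.04 to −0.34, limma adjusted p = 0.0582). ADSS was the least abundant of the 8 genes, with 120 to 455 reads per hen. It was DE under all 15 alternatives, with an adjusted p between 0.0139 and 0.169.

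IMPDH2 (ENSGALG00000006910, chromosome 12 from 11614723 to 11624716) encodes IMP dehydrogenase, the rate-limiting enzyme of the GMP branch. It had 32.9, 27.0 and 37.3 FPKM in L30 hens, against 42.5, 47.1 and 48.6 FPKM in L20 hens. The groups did not overlap, with a mean ratio of 0.703. Its log2 fold change was −0.50 (SE 0.16, 95% interval −0.89 to −0.12, limma adjusted p = 0.134). Without L20 hen 3 the log2 fold change was −0.47 with a wider error (SE 0.20), and the DE call was lost. The hepatocyte, macrophage, lymphocyte, endothelial and stellate sums given above were lower in L30 hens too, with separate groups. The single hepatocyte markers did not move together. In bulk tissue, fewer cells of a type and less RNA per cell cannot be told apart. The part of any of these cell types in the lower ADSS and IMPDH2 values was not tested.

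XDH (ENSGALG00000008701, chromosome 3 from 4394626 to 4438268) encodes xanthine dehydrogenase, the last enzyme before uric acid. It had 39.9, 144 and 99.8 FPKM in L30 hens, against 39.4, 82.7 and 76.3 FPKM in L20 hens. In both groups hen 1 was the lowest bird and hen 2 the highest, and the 2 lowest values of the series were nearly equal across the groups. Its log2 fold change was 0.40 (SE 0.52, 95% interval −0.85 to 1.65, limma adjusted p = 0.686). With L30 hen 1 left out it was 0.92 and with L30 hen 2 left out 0.0072, and XDH was DE in neither case. The FPKM ratio of PPAT to XDH was 1.86 to 4.03 in L30 hens and 0.60 to 1.35 in L20 hens, without overlap. The transcript level of PPAT relative to XDH was thus higher in every laying hen. PPAT separated the groups by itself and XDH did not, so the ratio adds no independent result. A row that the table describes as uricase (ENSGALG00000008834), looked up after its values were seen, held 0 to 0.156 FPKM and at most 3 reads in any hen.

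The order of the 8 levels differed between the groups in the middle only. FPKM is a level per length of transcript, so levels of different genes can be set side by side. ATIC was the most abundant, at rank 74 of all genes in L30 hens and 70 in L20 hens, followed by ADSL at rank 265 in L30 hens and 291 in L20 hens. PPAT stood at rank 291 in L30 hens and 790 in L20 hens, and PAICS at 372 in L30 hens and 1298 in L20 hens. GART ranked 419 in L30 hens and 641 in L20 hens, and XDH 548 in L30 hens and 654 in L20 hens. IMPDH2 ranked 1401 in L30 hens and 907 in L20 hens, and ADSS 4801 in L30 hens and 3200 in L20 hens. In L30 hens the ranges of ADSL, PPAT, PAICS, GART and XDH each overlapped with that of the next gene in the order, while ATIC lay above and IMPDH2 and ADSS below without overlap. In L20 hens GART, XDH, PPAT and IMPDH2 overlapped in the same way, and PAICS lay below IMPDH2 without overlap.

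**Figure D2:**
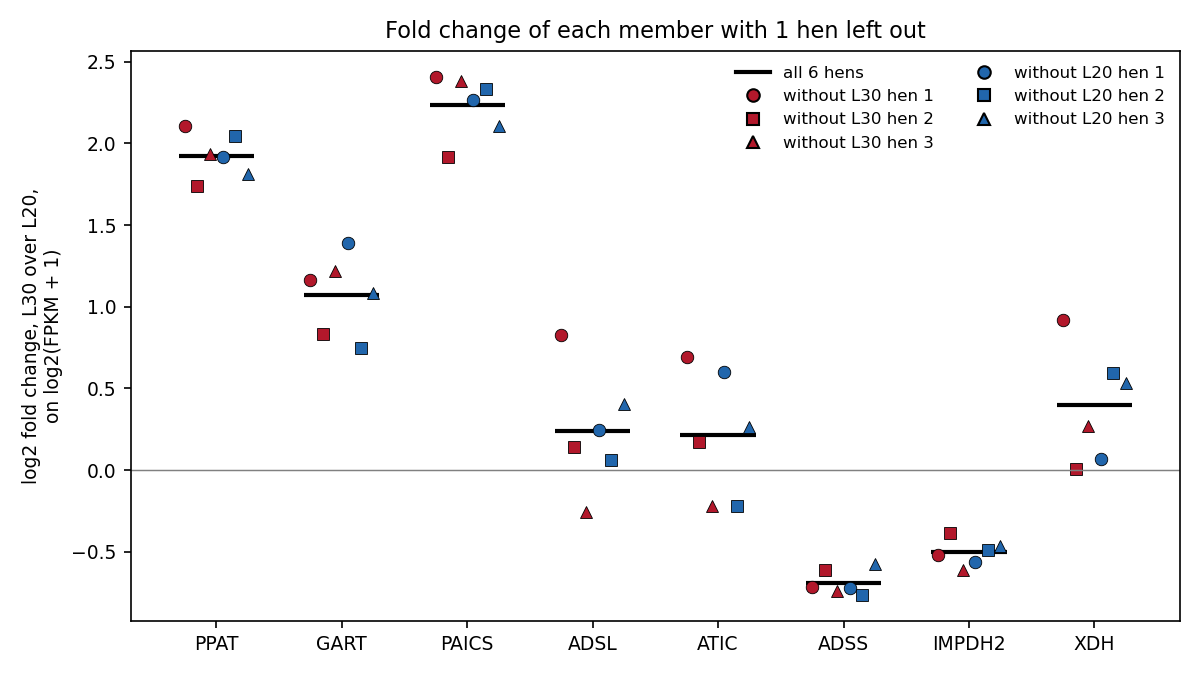
Log2 fold change of each gene, L30 over L20 on log2(FPKM + 1), with all 6 hens (black line) and with 1 hen left out (red, an L30 hen; blue, an L20 hen). PPAT, GART and PAICS stay above 0 and ADSS and IMPDH2 stay below 0 in every case, while ADSL runs from −0.25 to 0.83 and ATIC from −0.22 to 0.69.

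PRPP, the substrate of PPAT, comes from ribose phosphate. Of 9 tested genes of PRPP and ribose phosphate supply, 1 was DE and higher and 4 were DE and lower, with a median log2 fold change of −0.11. Over all genes tested, 11.0% were DE and higher and 11.7% were DE and lower. The higher gene was PRPS2, a PRPP synthetase, with 710, 1138 and 1003 FPKM in L30 hens, against 574, 297 and 487 FPKM in L20 hens. Its log2 fold change was 1.09 (SE 0.31, 95% interval 0.34 to 1.84, limma adjusted p = 0.108). The other synthetase, PRPS1, was DE and lower, at 8.75 ± 0.992 FPKM in L30 hens and 13.1 ± 1.95 FPKM in L20 hens. In both groups PRPS2 was far above PRPS1 in FPKM. The pentose phosphate genes H6PD (log2 fold change −1.11), TALDO1 (−0.70) and TKT (−0.34) were DE and lower, with adjusted p of 0.0765, 0.0892 and 0.194. TKT kept that call under 6 of the 15 alternatives, and with 1 hen left out only when that hen was L20 hen 1. The hepatocyte, macrophage, lymphocyte, endothelial and stellate sums were lower in L30 hens as well, and their part in these lower genes was not tested.

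Folate carries the formyl groups that GART and ATIC use. The 9 reported genes of the folate list had a median log2 fold change of 0.06. MTHFD1, the trifunctional enzyme that makes formyl folate, had 77.5, 177 and 155 FPKM in L30 hens, against 125, 36.2 and 103 FPKM in L20 hens (limma adjusted p = 0.465). SHMT1, which passes a carbon from serine to folate, had 69.9, 111 and 130 FPKM in L30 hens, against 90.4, 54.5 and 78.1 FPKM in L20 hens (limma adjusted p = 0.403). Both genes were not DE, their groups overlapped, and L30 hen 1 was the lowest laying hen and L20 hen 2 the lowest juvenile hen for each.

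A further list held enzymes that handle glutamine, glutamate and aspartate. Their part in supplying the purine ring was not tested. Of 7 tested genes of glutamine, glutamate and aspartate supply, 3 were DE and higher and 0 were lower, and the median log2 fold change was 0.74. Among all genes the shares were 11.0% DE and higher and 11.7% DE and lower. GOT2, mitochondrial aspartate aminotransferase, stood at 208 ± 22.7 FPKM in L30 hens and 112 ± 8.46 FPKM in L20 hens, with a log2 fold change of 0.89 (SE 0.15, limma adjusted p = 0.0417) and a ratio of 1.86 that fell short of the SDE rule. With 1 hen left out, the adjusted p of GOT2 met the threshold only when that hen was L30 hen 3. It reached 0.144 over the alternatives. GPT2, mitochondrial alanine aminotransferase, had 107, 278 and 163 FPKM in L30 hens, against 51.6, 58.1 and 51.4 FPKM in L20 hens, a ratio of 3.40 with an adjusted p of 0.0568. GLUD1, glutamate dehydrogenase, stood at 457 ± 137 FPKM in L30 hens and 199 ± 67.1 FPKM in L20 hens, with an adjusted p of 0.111. GLUL, glutamine synthetase, was not DE. It had 146, 284 and 323 FPKM in L30 hens, against 216, 55.3 and 239 FPKM in L20 hens (limma adjusted p = 0.517), and the groups overlapped.

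Xanthine dehydrogenase needs a molybdenum cofactor. In the list of purine breakdown and molybdenum cofactor genes, 4 of 14 tested genes were DE and higher and 1 was lower. The shares of all genes were 11.0% and 11.7%. Of the 4, 3 make or finish the cofactor, a grouping within the joint list that was named after the calls were seen. MOCS2, the molybdopterin synthase gene, had 104, 84.4 and 78.8 FPKM in L30 hens, against 27.8, 18.9 and 24.1 FPKM in L20 hens. Its log2 fold change was 1.88 (SE 0.19, 95% interval 1.42 to 2.34, limma adjusted p = 0.0101). MOCOS, the sulfurase that adds the sulfur required for xanthine dehydrogenase activity, had 41.8, 67.7 and 64.1 FPKM in L30 hens, against 13.5, 8.53 and 18.2 FPKM in L20 hens. Its log2 fold change was 2.06 (SE 0.31, 95% interval 1.32 to 2.80, limma adjusted p = 0.0289). Both were SDE, with ratios of 3.77 and 4.32 and no overlap between the groups. The largest adjusted p with 1 hen left out or under another alternative was 0.0554 for MOCS2 (lost without L20 hen 3 or L30 hen 2) and 0.112 for MOCOS (lost without any 1 L20 hen or without L30 hen 2). MOCS1, an earlier enzyme of the same route, had a log2 fold change of 0.38 (limma adjusted p = 0.182) that was DE under 10 of the 15 alternatives and was lost without L20 hen 3, L30 hen 2 or L30 hen 3. GPHN and MOCS3 were not DE. ADA, adenosine deaminase, was DE and higher at 3.87 ± 1.16 FPKM in L30 hens and 1.99 ± 0.662 FPKM in L20 hens (limma adjusted p = 0.141), and lost that call without L20 hen 1, L20 hen 3 or L30 hen 1. NT5E, a nucleotidase of the cell surface, was DE and lower near the filter, at 0.655 ± 0.439 FPKM in L30 hens and 1.41 ± 0.0984 FPKM in L20 hens (limma adjusted p = 0.166). With an L30 mean below 1 FPKM, NT5E passed the filter only through its L20 values, so its call is not independent of the filter. It was DE under 8 of the 14 alternatives that gave it a value, and with 1 hen left out only when that hen was L30 hen 1.

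Of 3 tested genes of urate transport, SLC2A9, which carries urate across membranes in mammals, was SDE and higher, as were 1.82% of all genes. It had 25.9, 21.8 and 18.8 FPKM in L30 hens, against 11.2, 6.92 and 9.73 FPKM in L20 hens, and the groups did not overlap. SLC2A9 had a log2 fold change of 1.18 (SE 0.20, 95% interval 0.69 to 1.68, limma adjusted p = 0.0423) and a ratio of 2.39. The adjusted p passed the threshold with 1 hen left out only when that hen was L30 hen 3, and it reached 0.144 over the alternatives. ABCG2, a urate exporter in mammals, was not DE, with 19.8 to 31.3 FPKM in L30 hens and 26.2 to 27.3 FPKM in L20 hens.

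**Figure D3:**
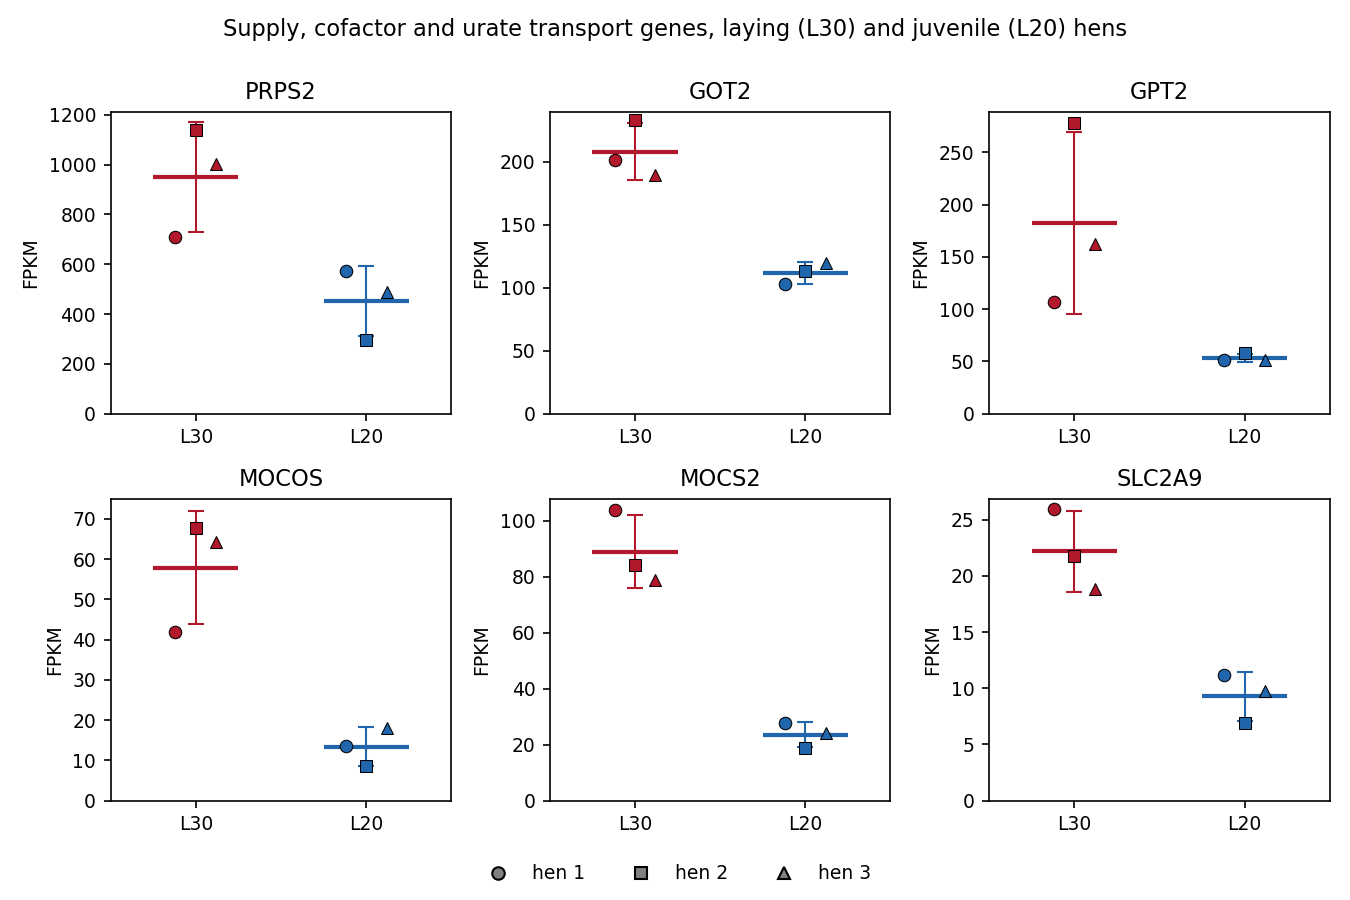
FPKM in each hen of PRPS2 of the PRPP list, and of GOT2 and GPT2 of the glutamine, glutamate and aspartate list. Also shown are MOCOS and MOCS2 of the molybdenum cofactor, and the urate carrier SLC2A9. L30 hens (red) are left and L20 hens (blue) right, with the group mean and 1 SD (n = 3 each) on axes from 0. The 6 genes were drawn from those called DE and higher. That every L30 hen lies above every L20 hen in all 6 panels is therefore no further result. Over all genes tested, 14.0% had this separation.

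Beyond IMP, 1 of 10 tested genes of purine interconversion was DE, and it was higher, beside 11.0% of all genes. AK3, a mitochondrial adenylate kinase that uses GTP, had 124, 131 and 109 FPKM in L30 hens, against 47.4, 15.0 and 26.0 FPKM in L20 hens. It was SDE with a log2 fold change of 2.15 (SE 0.39, limma adjusted p = 0.0456), a call that held with 1 hen left out only when that hen was L20 hen 1. Of 4 tested salvage genes, which recover free bases and nucleosides, APRT was DE and lower and DGUOK was DE and higher. The shares of all genes were 11.7% and 11.0%. APRT had 2.32, 1.58 and 1.42 FPKM in L30 hens, against 3.09, 3.48 and 3.18 FPKM in L20 hens, from 22 to 85 reads per hen. DGUOK stood at 9.64 ± 0.843 FPKM in L30 hens and 7.11 ± 0.955 FPKM in L20 hens (limma adjusted p = 0.156), and was no longer DE without L20 hen 2, L30 hen 1 or L30 hen 2. HPRT1, which recovers hypoxanthine and guanine, and ADK, adenosine kinase, were not DE. Dividing cells also draw on purine synthesis, and their part in the member values was not tested. The 6 cell cycle markers summed to 22.7 to 33.0 FPKM in L30 hens and 28.5 to 35.0 FPKM in L20 hens. PCNA, which was not DE, made up most of that sum in every hen. Of the 5 cell cycle markers tested, CDK1 and CCNB2 were DE and lower and 0 were higher, beside 11.7% and 11.0% of all genes.

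**Figure D4:**
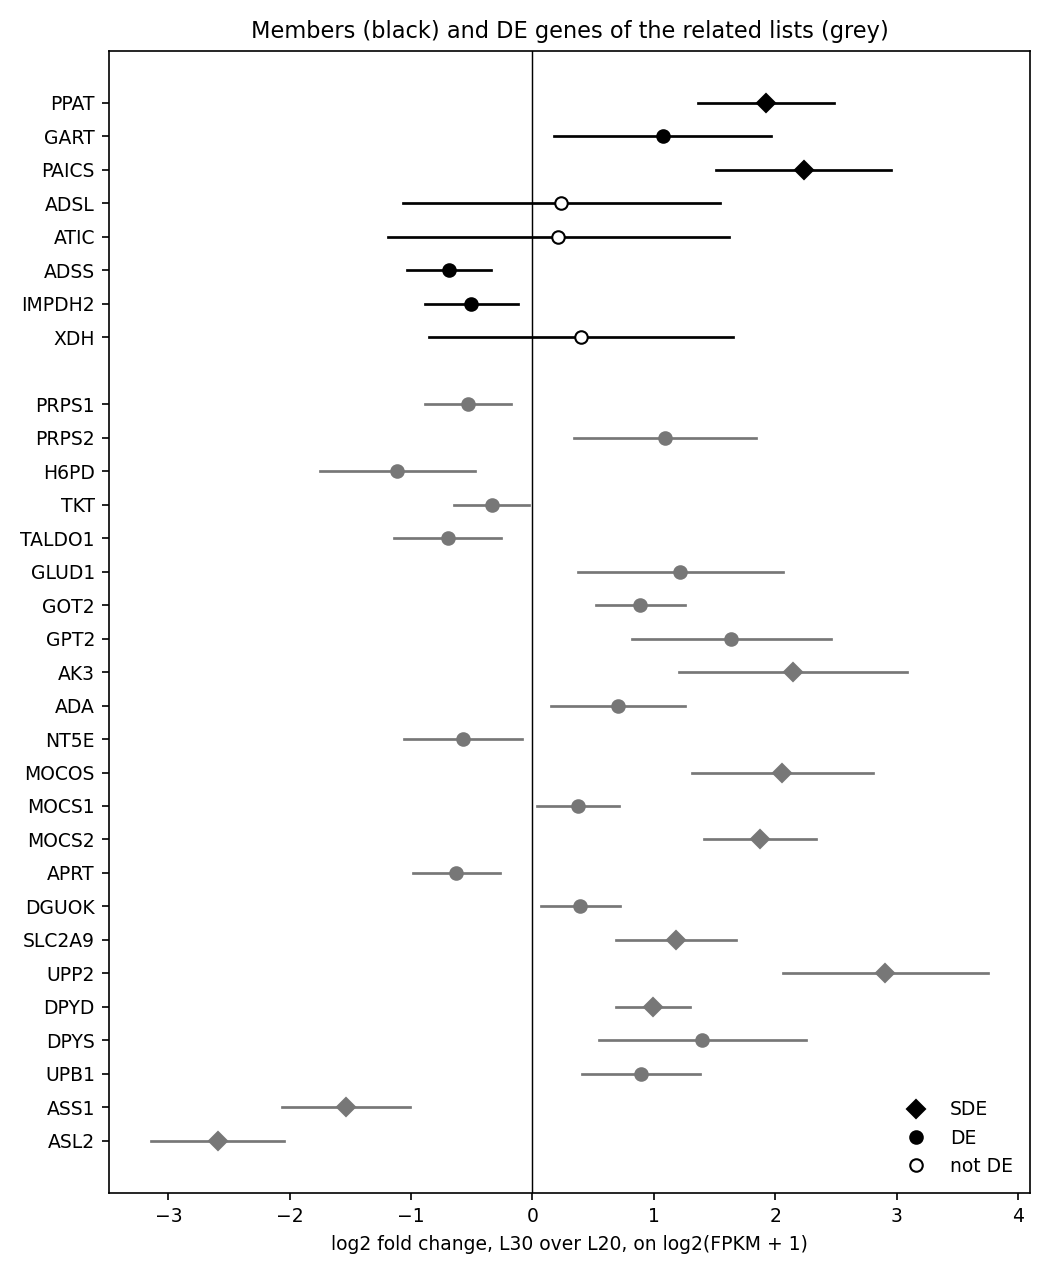
Log2 fold change, L30 over L20 on log2(FPKM + 1), with its 95% interval for the 8 genes in pathway order (black) and for the 23 DE genes among the 70 reported genes of the related lists (grey). Diamonds are SDE, filled circles DE and open circles not DE; the intervals of ADSL, ATIC and XDH span 0.

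Across all the related lists, 15 of 70 tested genes were DE and higher and 8 were DE and lower, and 6 were SDE and higher and 2 were SDE and lower. The median log2 fold change was 0.06 over the 70 genes. Of the 8 lower genes, NT5E passed the filter only through its L20 values. The shares DE of all genes were 11.0% higher and 11.7% lower, as above. The shares SDE of all genes were 1.82% higher and 0.935% lower.

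The hens did not rank alike across the genes. L30 hen 2 was the highest laying hen for 4 of the 8 genes (PPAT, GART, PAICS and XDH) and L30 hen 3 for the other 4. L30 hen 1 was the lowest laying hen for 5 of the 8, and L20 hen 2 the lowest juvenile hen for 4. For both ADSL and ATIC, L30 hen 1 was the lowest laying hen and L30 hen 3 the highest, and the ratio of ATIC to ADSL was 3.91 to 4.99 in L30 hens and 3.02 to 7.28 in L20 hens.

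Likeness to PPAT was measured as the root mean square difference of centred log2(FPKM + 1) over the 6 hens, for 8865 named genes. It describes the group difference and the spread within groups together. The nearest genes were SSX2IP (0.18), PAICS (0.22), TMEM41B (0.24), GPT2 (0.25) and NXPH2 (0.27). SSX2IP and NXPH2 had under 6 FPKM in every hen and under 1 FPKM in every L20 hen, so the pseudocount of 1 compressed their fold changes, and their rank is not read as likeness to PPAT in fold. GART ranked 276 of the 8865 in likeness to PPAT, and XDH 1904, ADSL 4989, ATIC 6392, IMPDH2 7801 and ADSS 8211. The genes nearest to XDH were GTSF1 (0.22), SLC38A2 (0.24), DYNLRB2 (0.27), LRRC58 (0.28) and MAT1A (0.29). Each of these had its lowest laying hen in L30 hen 1 and its highest in L30 hen 2, as XDH did. They were picked by likeness over the same hens, so this shared order is no separate result. GTSF1 had 2.25 to 8.90 FPKM and DYNLRB2 0.92 to 3.20 FPKM over the 6 hens, so the pseudocount of 1 compressed their fold changes too. ADSL, at rank 515, was the nearest of the other 7 genes to XDH.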

How the data were processed

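Per the labels and the study's methods, the authors filtered the reads, mapped them to galGal4 with TopHat2 (2.0.9 in the submitters' processing notes) and deposited FPKM per gene and hen. A further deposited column per hen holds scaled counts, a signal equal to reads divided by a library factor. The study's formula for FPKM names total mapped reads as the library scale. For ALB, VTG2 and PPAT, however, reads per unit of FPKM followed the library factor across hens more closely than the mapped reads. FPKM is thus read here as already scaled between libraries. Dividing by the value of 1 read gave whole numbers (within 0.1) for 99.9% of low values in each library, and 1 or 2 values lay below 1 read in 3 libraries. Strand use in counting is not given in the sources used here.

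Groups were compared two-sided with limma 3.58.1 in R 4.3.3, using moderated errors with a trend, on log2(FPKM + 1) of all genes averaging 1 FPKM or more. Each hen is a separate bird and 1 sample. The p-values thus weigh the group difference against the spread between these birds, moderated over all genes. DE and SDE used the study's thresholds, but the study called genes with Cuffdiff, so the calls are not equivalent. The study names PPAT, ASS1 and ASL2 among its SDE genes, as here. It also names GLUD1 and GPT2, which were not SDE here. The 15 alternatives changed the pseudocount (0.1), filter (none, or 5), scaling, eBayes trend and replicate block, used edgeR 4.0.16 or DESeq2 1.42.0 on recovered reads, or left out each hen. The methods were tested on simulated counts with large changes of equal size and a fixed spread between samples. That test does not cover smaller changes or genes that vary more between hens.

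The text names all members, the DE genes of each pathway list (at most 6 by p), and the 5 genes most like PPAT and XDH. Other genes are named as context. Members and lists were chosen with earlier results of these data known. 1 gene of the lists is not reported here. Older symbols came from RefSeq's gene table.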

Additional observations from a re-analysis of the deposited data

How the results depend on the processing

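The directions of PPAT, PAICS, GART, ADSS, IMPDH2 and XDH were the same under all 15 alternatives. The log2 fold change of ATIC became −0.22 without L20 hen 2 and −0.22 without L30 hen 3, and that of ADSL became −0.25 without L30 hen 3. With 1 hen left out ADSL ranged from −0.25 to 0.83 and ATIC from −0.22 to 0.69. The cause was not tested. With 1 hen left out, the 8 members gave 2 to 3 DE genes that were higher, 1 to 2 that were lower and 0 to 2 SDE genes, and the related lists gave 19 to 25 DE and 1 to 9 SDE genes, beside 23 and 8 with all hens. Over all genes, these fits gave 1569 to 2274 DE and 64 to 386 SDE genes, beside 2213 and 268.

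The labels give no pairing of hens between the groups, and replicate numbers are those of the library names. The correlation of deviations from group means was 0.017, 0.012 and 0.094 for same-numbered hens. It ran from −0.074 to 0.059 for hens of different number. With 3 hens a group, these values cannot decide whether the numbers pair the hens. With the replicate number as a block, 0 members, 2 genes of the lists and 54 of all genes were SDE, and GART was not DE (adjusted p = 0.276). Fewer residual degrees of freedom remain under the block. XDH kept its log2 fold change of 0.40 under the block, with SE 0.21 beside 0.52 in the main fit, and was not DE.

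On recovered reads, edgeR called 429 of all genes and 2 members SDE, and DESeq2 called 883 of all genes, 16 of the lists and 3 members. GART was SDE only with DESeq2 (log2 fold change 1.10, DESeq2 adjusted p = 0.0416). Upper quartile scaling left 5 SDE genes of the lists. A mean FPKM of at least 5 left 1459 DE genes, since fewer genes were tested. No scaling moved the median of all genes by over 0.1. With 3 hens a group, the spread between hens limits ADSL, ATIC and XDH, not their depth.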

Other observations

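Of 12 tested genes of the joint list of pyrimidine synthesis and breakdown, 4 were DE and higher in L30 hens, beside 11.0% of all genes. These were UPP2, DPYD, DPYS and UPB1, which act in breakdown from uridine to beta-alanine. That grouping within the list was made after the calls were seen. UPP2, uridine phosphorylase, had 19.1, 15.8 and 42.9 FPKM in L30 hens, against 2.21, 2.38 and 2.23 FPKM in L20 hens (log2 fold change 2.91, SE 0.35, limma adjusted p = 0.0161, 0.0753 at most over the alternatives). DPYD, the rate-limiting enzyme of uracil breakdown, had 26.8, 28.4 and 26.5 FPKM in L30 hens, against 13.8, 11.5 and 14.3 FPKM in L20 hens (adjusted p = 0.0203, 0.0921 at most). Both were SDE. UPP2 lost that without L20 hen 2 or 3. The adjusted p of DPYD missed the threshold without L20 hen 3, L30 hen 1 or L30 hen 2. Without L20 hen 2 the group means of DPYD differed less than 2-fold, so it was not SDE there either. DPYS, the next enzyme, stood at 335 ± 30.6 FPKM in L30 hens and 136 ± 58.6 FPKM in L20 hens, and UPB1, the last, at 113 ± 25.5 FPKM in L30 hens and 59.2 ± 3.21 FPKM in L20 hens, with adjusted p of 0.0841 and 0.0691. UPP1, another uridine phosphorylase, and CAD, which starts pyrimidine synthesis, had under 1 FPKM in every hen and were not tested, and DHODH and UMPS were not DE.

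Of 6 urea cycle genes, 2 passed the filter, and both were SDE and lower in L30 hens. Of all genes tested, 0.935% were SDE and lower. ASS1, argininosuccinate synthase, had 18.1, 13.9 and 12.7 FPKM in L30 hens, against 37.4, 40.9 and 58.1 FPKM in L20 hens (log2 fold change −1.54, SE 0.22, limma adjusted p = 0.0255, 0.107 at most over the alternatives, and not SDE without L20 hen 2, L20 hen 3 or L30 hen 2). ASL2, argininosuccinate lyase, had 2.00, 0.965 and 1.62 FPKM in L30 hens, against 15.2, 10.7 and 17.0 FPKM in L20 hens (adjusted p = 0.00505). ASL2 has a closely related copy, ASL1, so how reads were split between them is uncertain. CPS1, the first enzyme of the cycle, had under 1 FPKM in every hen of both groups. The marker sums of hepatocytes, macrophages, lymphocytes, endothelial and stellate cells were also lower in L30 hens. Their part in the lower ASS1 and ASL2 values was not tested.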
